A study of Mus musculus with 32 samples.

Results

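Chemokines and their receptors were followed in mouse tumours of the ovary and oviduct and in the normal tissues. The members are the genes whose symbol is Ccl, Cxcl, Xcl, Cx3cl, Ccr, Cxcr, Xcr or Cx3cr followed by a number and at most 1 letter. This rule used no measured value and found 56 of the 55450 genes, 38 ligands and 18 receptors. The symbols Ccl19-ps1, Ccl19-ps3 and Ccr1l1 fall outside it. At least 1 of the 32 libraries held 47 of the members (35 ligands and 12 receptors) at 1 TPM or more, where TPM is a transcript level per gene length, scaled to the library. Ccl26 and Ccl27b were listed at 0 in every library.

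Chemokines are small secreted or membrane-anchored proteins that guide the movement of leukocytes. They bind G protein-coupled receptors on the moving cell, and many ligands share a receptor while many receptors take several ligands. Homeostatic chemokines are made steadily and set where lymphocytes and dendritic cells settle, whereas inflammatory chemokines are switched on by infection, damage or tumour growth and draw in monocytes, neutrophils and effector T cells. In the reproductive tract they place leukocytes in the mucosa, and the ovary uses them around ovulation.

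The libraries came from female mice, 26 from tumours and 6 from normal tissue, in 10 groups. A GEMM tumour arose in the genetically engineered mouse itself, and an allograft is such a tumour passed to another mouse; the labels do not say which tumour gave which allograft or which mice received them. All tumours carried the alleles Brca1 fl/fl and K18GT121 Tg/+, a transgene that inhibits the Rb proteins. OSE-BPR tumours (3 GEMM, 5 allografts) carried Trp53 fl/fl in the FVB strain and were started with adenoviral Cre placed beneath the ovarian bursa, next to the ovarian surface epithelium. Every other group was C57Bl/6. Ad-BPR tumours (2 GEMM, 4 allografts) carried Trp53 fl/fl and received adenoviral Cre in the oviduct, which reaches whichever cells the virus enters. Pax8-BPR tumours (4 GEMM, 2 allografts) carried Trp53 fl/fl and Pax8-CreERT2 Tg/+, a tamoxifen-dependent Cre that the study used for secretory cells of the oviduct. Ovgp1-BPR tumours (3 GEMM, 3 allografts) carried Ovgp1-CreERT2 Tg/+, also tamoxifen-dependent and used for those cells, and by their labels Trp53 KozR172H ki/+, while the series' design text names both that mutation and Trp53 fl/fl for them. Tumours were taken at endpoint, months after induction, and the labels give no ages. Normal ovary and normal oviduct were taken from the same 3 wild type mice. Strain and origin cannot be told apart in OSE-BPR, since it was the only FVB model and no normal FVB tissue was included. These were bulk tissues, so fewer cells of a type and less RNA per cell cannot be told apart.

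Library totals ran from 13987123 to 20514825 expected counts. The labelled tissues were checked against marker genes. Oviduct epithelium markers (Ovgp1, Pax8, Foxj1) summed to 2699 to 6820 TPM in normal oviduct and 3.7 to 4.22 TPM in normal ovary, while ovary somatic markers (Foxl2, Star, Cyp11a1, Amh) summed to 5154 to 6238 TPM in normal ovary and 48.2 to 625 TPM in normal oviduct, so the oviduct libraries held some ovary transcripts. Among tumours, the oviduct epithelium markers summed to 4.66 to 17.5 TPM in OSE-BPR and 80.8 to 735 TPM in the 18 oviduct-origin tumours (Ad-BPR, Pax8-BPR and Ovgp1-BPR). The third Ovgp1-BPR allograft stood apart from the other members of its group in several chemokines, as given beside them.

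Cxcl1, Cxcl2 and Cxcl3, which draw neutrophils through Cxcr2, and Cxcl10, which draws T cells through Cxcr3, were all higher in oviduct-origin GEMM tumours than in normal oviduct. Their start regions are shown as examples, picked because these genes rose and hold motif matches, so the matches are no test of the rises. Each line gives the 250 bases before the start in RefSeq (GRCm38.p6, which uses the coordinates of mm10), 5′ to 3′ in the gene's direction, for Cxcl1 (chr5:90890995-90891244, plus strand), Cxcl2 (chr5:90903649-90903898, plus strand), Cxcl3 (chr5:90785851-90786100, plus strand) and Cxcl10 (chr5:92348890-92349139, minus strand). Capitals mark matches to the NF-kappa-B consensus or the interferon-stimulated response element (TTTC, any 2 bases, TTTC), each searched on both strands, and to the TATA box TATAAA, searched on the gene's strand.
Cxcl1: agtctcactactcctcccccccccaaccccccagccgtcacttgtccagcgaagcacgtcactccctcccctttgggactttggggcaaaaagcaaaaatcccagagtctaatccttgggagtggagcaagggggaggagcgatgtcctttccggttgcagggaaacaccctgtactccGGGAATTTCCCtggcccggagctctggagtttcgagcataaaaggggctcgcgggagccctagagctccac
Cxcl2: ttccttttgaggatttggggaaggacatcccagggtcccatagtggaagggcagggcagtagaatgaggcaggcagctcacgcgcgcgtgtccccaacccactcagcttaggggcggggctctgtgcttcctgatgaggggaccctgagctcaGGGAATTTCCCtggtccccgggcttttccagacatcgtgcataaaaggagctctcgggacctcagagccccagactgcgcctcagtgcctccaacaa
Cxcl3: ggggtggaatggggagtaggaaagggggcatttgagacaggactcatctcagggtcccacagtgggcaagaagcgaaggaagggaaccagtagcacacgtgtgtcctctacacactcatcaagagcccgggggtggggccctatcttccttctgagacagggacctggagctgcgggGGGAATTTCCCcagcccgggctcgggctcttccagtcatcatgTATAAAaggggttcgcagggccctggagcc
Cxcl10: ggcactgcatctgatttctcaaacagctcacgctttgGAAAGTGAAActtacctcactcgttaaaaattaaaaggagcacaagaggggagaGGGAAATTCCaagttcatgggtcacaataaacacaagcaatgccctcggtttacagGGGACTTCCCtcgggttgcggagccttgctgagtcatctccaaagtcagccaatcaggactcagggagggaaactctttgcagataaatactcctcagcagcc
The letters GGGAATTTCCC stood in the windows of Cxcl1 (positions -71 to -61 from the start), Cxcl2 (-97 to -87) and Cxcl3 (-73 to -63), where the NF-kappa-B consensus matched on both strands at overlapping positions. Of 32851 windows of this length, 12 (0.0365%) held these 11 letters. The Cxcl10 window held an interferon-stimulated response element on the opposite strand (-213 to -204) and 2 NF-kappa-B matches (-159 to -150 and -103 to -94). RefSeq windows were found for 41 members (48 windows, as some genes have several starts). An NF-kappa-B match lay in 8 of these 48 windows (16.7%) and in 3.9% of all windows, an interferon-stimulated response element in 3 (6.25%) and in 2.98%, and a TATA box in 10 (20.8%) and in 7.59%. The members with an NF-kappa-B match were Ccl20, Ccl9, Ccr3, Ccr6, Cxcl1, Cxcl10, Cxcl2 and Cxcl3. A match describes the letters only.

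By the GENCODE M21 annotation (GRCm38), many members share a few chromosomes, though those on the same chromosome are not all neighbours. Chromosome 11 holds 12 ligands, among them Ccl8 (chr11:82115185-82116799, plus strand), Ccl9 (chr11:83572919-83578636, minus strand) and Cxcl16 (chr11:70453983-70459984, minus strand). Chromosome 5 holds 11 ligands, among them Cxcl5 (chr5:90759360-90761624, plus strand) and the ligands whose start regions are given above. Chromosome 4 holds 5, among them Ccl27a (chr4:41769467-41774247, minus strand) and Ccl21a (chr4:42772860-42773993, minus strand). Of the receptors, 11 lie on chromosome 9. Cxcl12 (chr6:117168535-117181367, plus strand) and Cxcl17 (chr7:25400053-25412886, minus strand) are the only ligands on their chromosomes, and Cxcr4 lies on chromosome 1 (chr1:128588199-128592293, minus strand).

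The most abundant ligand differed between models, while the most abundant receptor hardly did. Cxcl17, a mucosal chemokine, was the highest ligand in 8 libraries, Ccl27a, a ligand of Ccr10, in 7, and Cxcl16, a membrane-anchored ligand of Cxcr6, in 6. Ccl21a, which guides Ccr7-bearing T cells and dendritic cells, was the highest ligand in all 6 normal libraries and in no tumour. Cxcr4, the receptor of Cxcl12, was the highest receptor in 31 of 32 libraries, and Cx3cr1, the receptor of Cx3cl1 on monocytes and macrophages, in the third Ovgp1-BPR allograft. The number of members at 1 TPM or more ran from 12 to 24 in OSE-BPR tumours, from 22 to 43 in oviduct-origin tumours, from 21 to 25 in ovary and from 24 to 28 in oviduct. The heatmap of levels shows OSE-BPR columns dark, that is low, over most ligand rows.

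**Figure D1:**
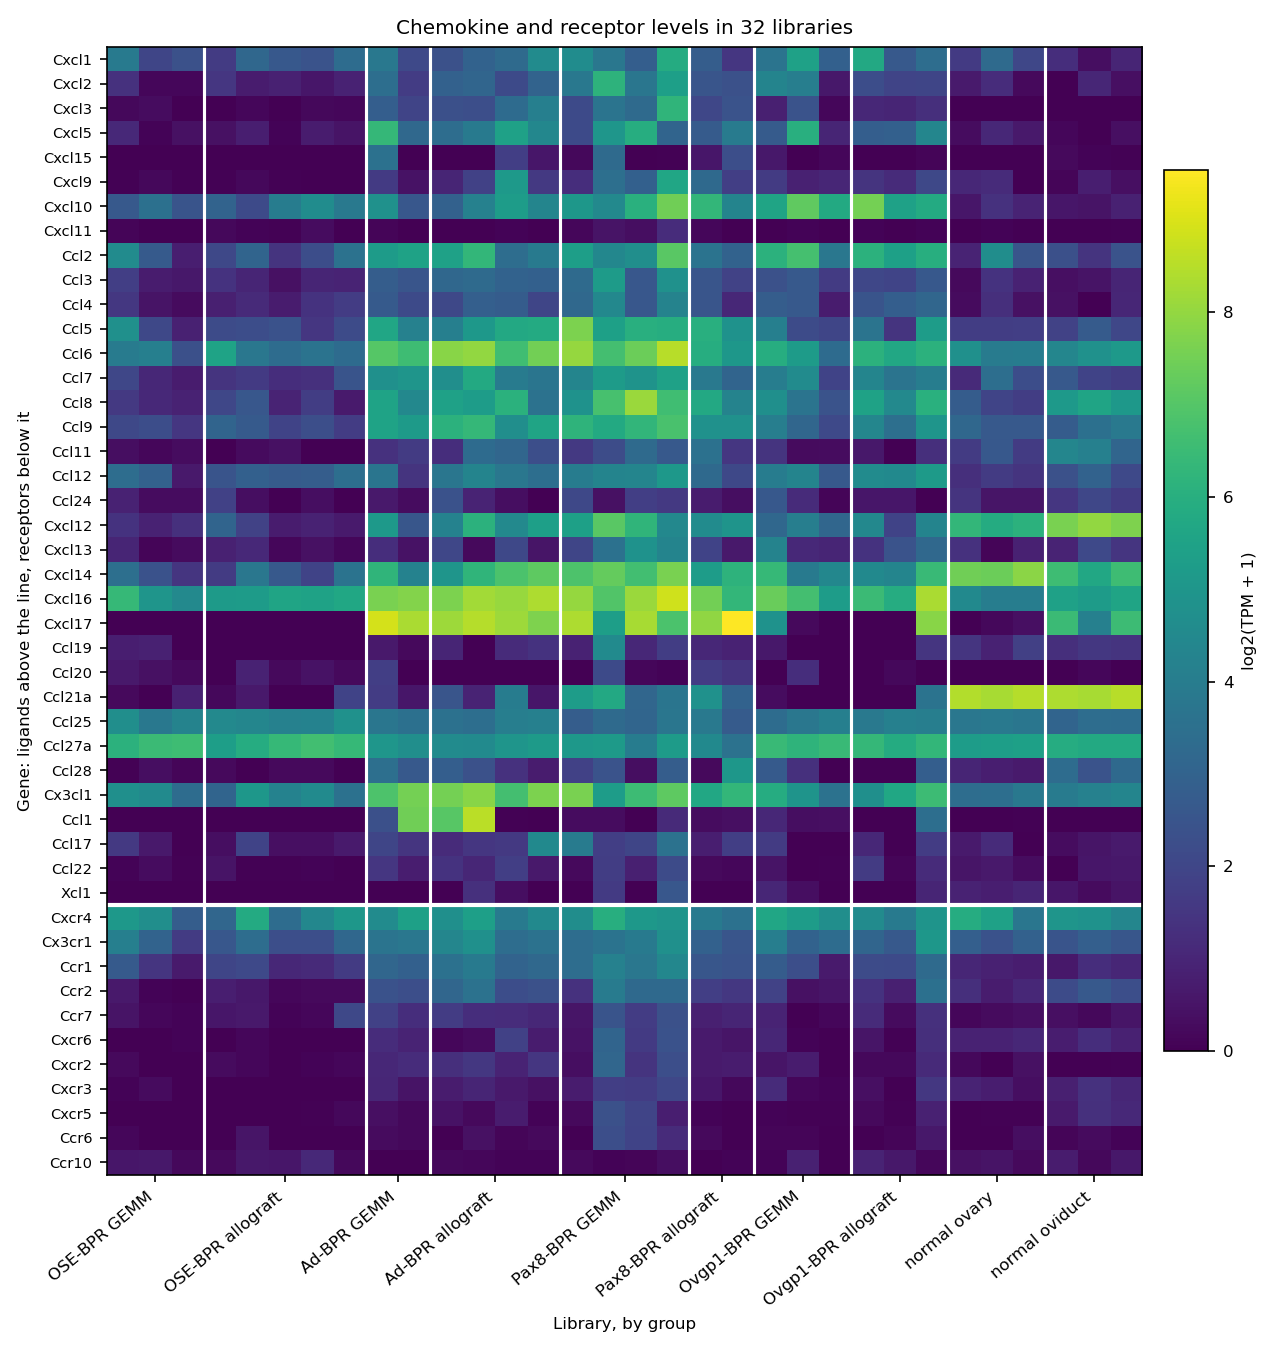
Level of members that reached 1 TPM in a library (35 ligands, then 11 receptors, rows) in each of the 32 libraries (columns, by group), coloured by log2(TPM + 1). Dark cells are low and bright cells high: Ccl27a and Cxcr4 are above the dark end in every library, Cxcl17 is dark in the 8 OSE-BPR columns, and Ccl21a is bright in the 6 normal columns.

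By rank over all 32 libraries, the ligands of highest mean level were Cxcl16 (130 TPM), Cxcl17 (129), Ccl6 (78.7), Cxcl14 (69.8), Ccl21a (68.6), Cx3cl1 (65.7), Ccl27a (52.6) and Cxcl12 (45.5). Most of them varied widely between groups, so this order describes these libraries as a set. Cxcr4 averaged 28.2 TPM and stayed between 6.06 and 62.7 TPM in tumours and between 12.3 and 58.3 TPM in normal tissue. In OSE-BPR GEMM tumours Cxcr4 was at 33.2, 25 and 6.06 TPM, and the Cxcr4 levels of all 4 models overlapped. The test across the 4 models left Cxcr4 uncalled (adjusted p = 0.4 in GEMM tumours and 0.673 in allografts, edgeR's quasi-likelihood test).

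**Figure D2:**
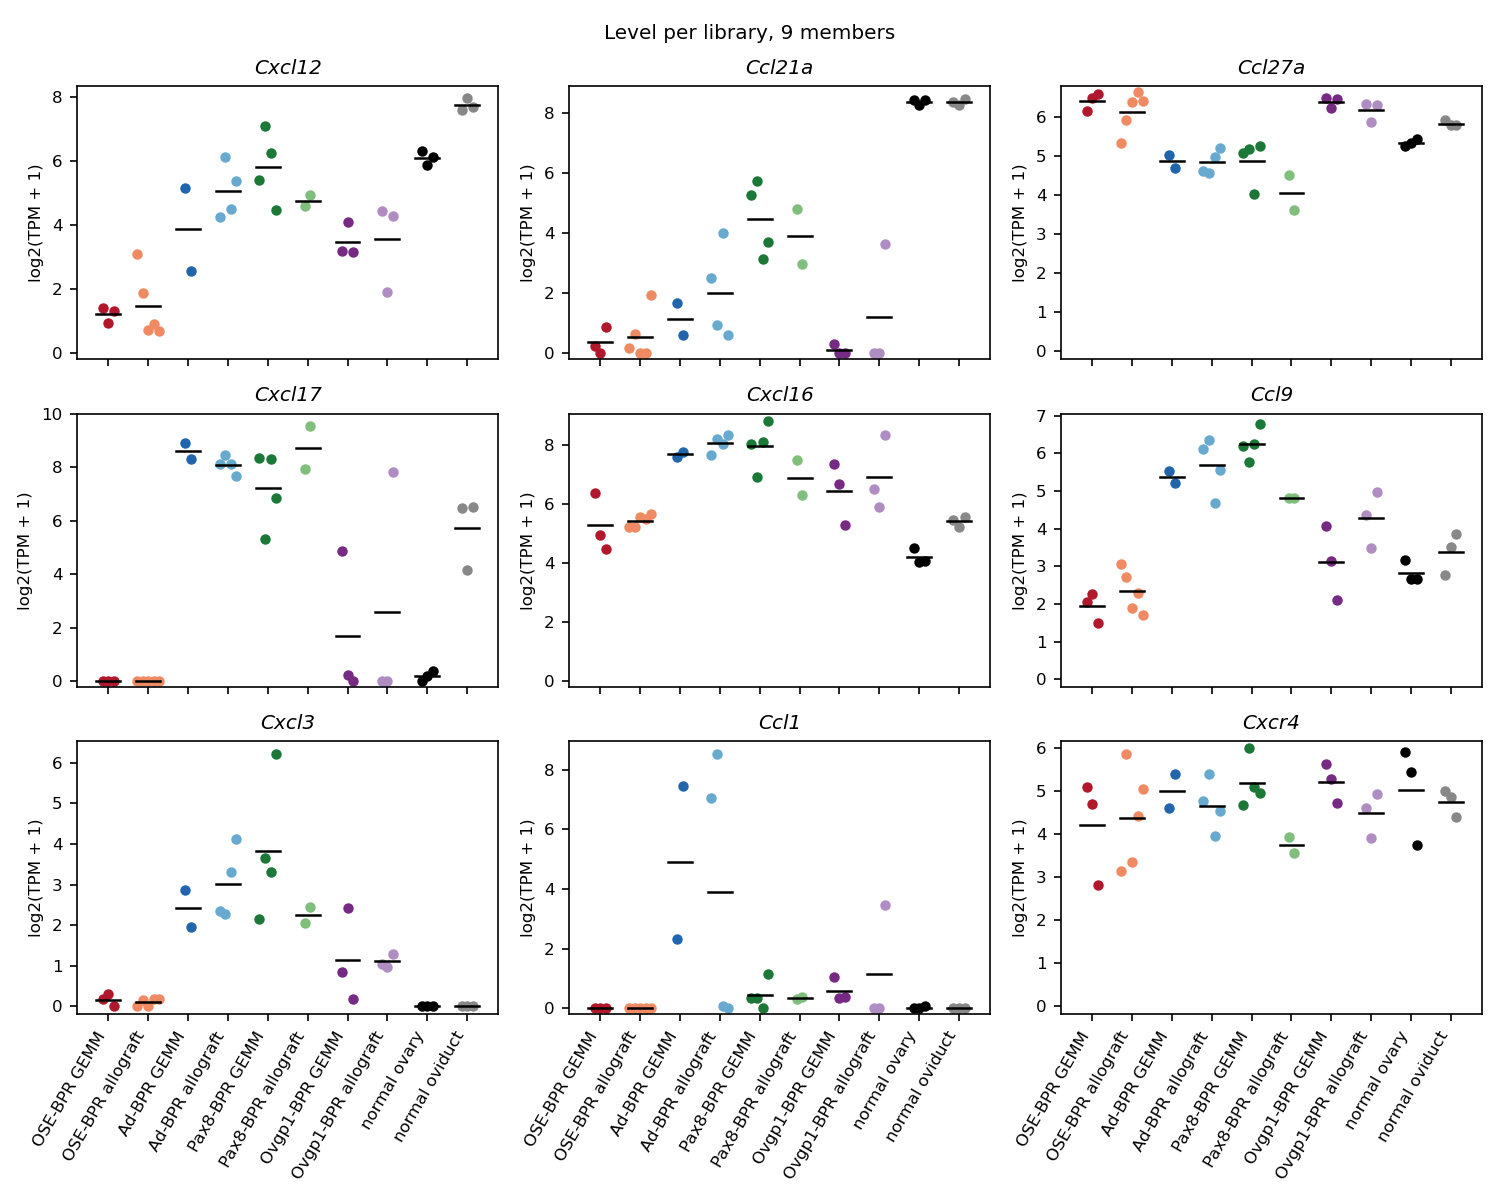
TPM on a log2(TPM + 1) axis of 9 members in each library, in 10 groups; points are libraries and bars are group means on that axis. Cxcl17 lies at 0 in all 8 OSE-BPR tumours, Ccl27a lies between 39.3 and 98 TPM in OSE-BPR and 57.5 and 88.1 TPM in Ovgp1-BPR but between 11.2 and 37 TPM in Ad-BPR and Pax8-BPR, and the Cxcr4 ranges of the 4 models overlap.

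The first comparison set normal oviduct against normal ovary, the tissues from which the tumours were started. Of 29 members tested, 12 were higher in oviduct, where 28.5% of all 17334 genes tested were higher, and 3 were lower, where 24.5% of all genes were. The median log2 difference of the members was 0.64, and that of all genes 0.02. Homeostatic and mucosal ligands made up 6 of the 12 higher members, and monocyte and inflammatory Ccl ligands 5. Cxcl17 was at 89.3, 17 and 90.9 TPM in oviduct and at 0, 0.15 and 0.3 TPM in ovary. Every oviduct value stood far above every ovary value, and the log2 difference was 8.69 (SE 1.07, adjusted p = 0.000615). Ccl28, a mucosal ligand of Ccr10, was at 9.42, 4.36 and 8.68 TPM in oviduct and 0.97, 0.76 and 0.6 TPM in ovary, and also did not overlap (log2 difference 3.52, SE 0.40, adjusted p = 0.0004). Ccl8, a mouse ligand of Ccr8, was at 33.7, 46.4 and 32.5 TPM in oviduct and 5.83, 2.84 and 2.31 TPM in ovary (log2 difference 3.51, SE 0.37, adjusted p = 0.000299). Cxcl12, which holds Cxcr4-bearing cells in tissue, was at 193, 251 and 203 TPM in oviduct and 79.1, 57.6 and 68.7 TPM in ovary, again without overlap (log2 difference 1.53, SE 0.15, adjusted p = 0.000208).

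Other members higher in oviduct were Ccl11, which draws eosinophils through Ccr3 (14.7 against 3.15 TPM on average, adjusted p = 0.00656), Ccl12, a mouse monocyte attractant (4.8 against 1.76 TPM, adjusted p = 0.0138), and the monocyte receptor Ccr2 (4.23 against 1.07 TPM, adjusted p = 0.000911). The members higher in ovary were Cxcl14, made in many healthy epithelia (191 against 79.6 TPM, adjusted p = 0.0103), Ccl25, known from thymus and gut (12.9 against 8.78 TPM, adjusted p = 0.0171), and Cxcl1 (4.65 against 0.883 TPM, adjusted p = 0.0282). Cxcl1 was at 2.05, 8.81 and 3.09 TPM in ovary. Its call was lost in 6 of 14 alternatives, among them the animal as a replicate block (adjusted p = 0.0898) and leaving out ovary 2, oviduct 2 or oviduct 3. The call of Ccl25 was lost in 5 of 14, among them the same block (adjusted p = 0.0542) and leaving out ovary 1 or ovary 2. With all 32 libraries in 1 fit, 3 members were higher in oviduct and 0 lower, where 1616 and 989 of all 20887 genes were. The calls of Ccl28 (adjusted p = 0.186), Ccl11 (0.143), Ccl12 (0.184), Ccr2 (0.198), Cxcl14 (0.33), Ccl25 (0.165) and Cxcl1 (0.133) were lost in that fit. The call of Ccl12 was lost without ovary 1 or ovary 3 too (adjusted p = 0.0528 and 0.0567). Ccl21a did not differ by the test, at 329, 311 and 359 TPM in oviduct and 347, 312 and 352 TPM in ovary. Epithelium markers were higher in oviduct for 4 of 4 (summed 929 to 1112 TPM against 49.3 to 77.9 TPM), macrophage markers for 0 of 5, and dendritic cell markers for 2 of 3 (6.75 to 16.8 TPM against 2.26 to 3.2 TPM). Fibroblast markers were higher for 2 of 3 and lower for 1 (1513 to 2357 against 624 to 840 TPM). B and plasma cell markers were higher for 2 of 3, T cell markers for 1 of 3 and neutrophil markers for 1 of 2. Endothelium markers were higher for 1 of 3 and lower for 2, and ovary somatic markers lower for 3 of 4. The part of these cells in these results was not tested. Limma on log2(TPM + 1) turned the share of called genes that were higher in oviduct from 53.8% to 42.4%.

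The second comparison set tumours against the normal tissue of their origin. In OSE-BPR GEMM tumours against ovary, 5 of 46 members tested fell, where 11.6% of all 20887 genes fell, and 1 rose, where 11.6% of all genes rose. The median log2 difference was -0.91 for the members (-0.41 with the 6 members at 0 counts in a group put at their bound) and 0.00 for all genes. The members that fell most were ligands of healthy tissue. Ccl21a was at 0.17, 0 and 0.85 TPM in the tumours against at least 312 TPM in ovary (log2 difference -9.96, SE 1.78, adjusted p = 0.000324). Its close copy Ccl21b was at no more than 0.55 TPM in ovary, and reads of the pair could have been divided between them. Cxcl12 was at 1.63, 0.89 and 1.47 TPM in the tumours (log2 difference -6.11, SE 1.00, adjusted p = 0.000136). Cxcl14 was at 10.2, 4.26 and 1.77 TPM against 176, 165 and 232 TPM in ovary (log2 difference -5.34, SE 0.88, adjusted p = 0.000147). For these 3 ligands no tumour reached any ovary library.

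Ccl11 (0.203 against 3.15 TPM, adjusted p = 0.0136) and Cxcr6, a receptor of tissue-resident T and NK cells (0.02 against 0.96 TPM, adjusted p = 0.0184), fell too. The call of Cxcr6 was lost without the first or the second tumour (adjusted p = 0.0565 and 0.0771) and with limma on log2(TPM + 1) (0.125), and that of Ccl11 without the second tumour (0.0633) or ovary 2 (0.0568). Ccl27a was the member that rose, at 69.6, 88.3 and 95.1 TPM in the tumours and 37.2, 39.2 and 41.8 TPM in ovary. All 3 tumours exceeded all 3 ovaries, by a log2 difference of 0.99 (SE 0.30, adjusted p = 0.0186), but the call was lost without the third tumour (adjusted p = 0.0805) and without ovary 1 or ovary 3 (adjusted p = 0.0702 and 0.0502). Ccl27a and Ccl27b are close copies, and reads shared between them could have been divided; Ccl27b was listed at 0. Epithelium markers were higher in the tumours for 4 of 4 (1780 to 1945 TPM), while ovary somatic markers fell in 3 of 4 cases (43.5 to 92.8 TPM summed in the tumours), endothelium markers in 2 of 3 (60.7 to 81.7 TPM against 98.3 to 106 TPM) and dendritic cell markers in 2 of 4 (0.33 to 2.9 TPM against 2.26 to 3.2 TPM), with Ncr1 at 0 counts in all 3 tumours. Fibroblast markers summed to 218 to 462 TPM in the tumours and 624 to 840 TPM in ovary, with 0 of 3 called. B and plasma cell markers fell in 2 of 4 cases, T cell and macrophage markers in 1 of 5 each and neutrophil markers in 0 of 4. What part any of these cells had in these results was not tested.

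In oviduct-origin GEMM tumours against oviduct (the mean of 3 models with equal weight), 17 of 46 members rose, where 14.8% of all genes rose, and 5 fell, where 20.9% of all genes fell. The median log2 difference was 1.38 for members, 2.12 for ligands, 0.48 for receptors and -0.04 for all genes. The neutrophil-attracting Cxcl ligands rose in 4 of 5 cases, with a median log2 difference of 5.57. Cxcl3 was at 0 counts in all 3 oviducts and at 6.28 and 2.88 TPM in Ad-BPR, 3.44, 11.6, 8.89 and 73.6 TPM in Pax8-BPR and 0.8, 4.37 and 0.13 TPM in Ovgp1-BPR. Against a floor of 3 counts per oviduct library, the mean Cxcl3 level of the 3 models was at least 35.3-fold higher, which need not hold for each tumour. The test of the equal-weight log2 difference called Cxcl3 higher (adjusted p = 0.000383). Cxcl5 was at 0.12, 0 and 0.32 TPM in oviduct and between 1 and 79.7 TPM in the 9 tumours, with no overlap (log2 difference 7.45, SE 1.48, adjusted p = 0.000373). Cxcl2 (17.4 against 0.447 TPM, log2 difference 5.57, adjusted p = 0.000266) and Cxcl1 (17.8 against 0.883 TPM, log2 difference 3.97, adjusted p = 0.00299) rose as well. Cxcl1, Cxcl2 and Cxcl3 hold GGGAATTTCCC in the start regions shown above, which were picked with these rises known. No window was found for Cxcl5. Cxcl15, a lung-type member of the class, was not called.

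Cxcr2, the neutrophil receptor of these ligands, was at 0, 0 and 0.03 TPM in oviduct. In the tumours Cxcr2 was at 1.1 and 1.3 TPM in Ad-BPR, 0.29, 7.81, 1.73 and 3.91 TPM in Pax8-BPR and 0.44, 0.64 and 0 TPM in Ovgp1-BPR (log2 difference 6.12, SE 1.51, adjusted p = 0.00278). Only 1 tumour, of Ovgp1-BPR, lay within the oviduct range. Neutrophil markers moved with it: S100a8, S100a9 and Csf3r rose, Ly6g fell, and their summed level was 8.74 to 799 TPM in the tumours against 4.11 to 23.6 TPM in oviduct, with Ly6g at 0 counts in 4 of 9 tumours. The part of neutrophils in these rises was not tested.

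Cxcl10, an interferon-induced ligand of Cxcr3, was at 0.48, 0.43 and 0.84 TPM in oviduct and rose without overlap to between 4.96 and 175 TPM in the tumours (log2 difference 6.95, SE 1.11, adjusted p = 3.14e-05). Of its exon bases, 5.9% overlap Art3 on the opposite strand, and whether the counting used strand is unknown, so reads of the overlapping pair cannot be told apart. Among the monocyte and inflammatory Ccl ligands, 7 of 11 rose and 1 fell, with a median log2 difference of 1.77. Ccl2, the main monocyte attractant through Ccr2, rose from 3.37 to 52.4 TPM (adjusted p = 0.00694), Ccl3 from 0.56 to 9.52 TPM (adjusted p = 0.000338) and Ccl7 from 3.49 to 24.8 TPM (adjusted p = 0.00436). Ccr1, a receptor of Ccl3 and Ccl7, rose with them, from 0.987 to 8.58 TPM (adjusted p = 0.00119). Macrophage markers rose in 3 of 5 cases (120 to 866 TPM summed in tumours, 133 to 161 TPM in oviduct), and their part was not tested. The membrane-anchored Cxcl16 (194 against 42 TPM, adjusted p = 0.00206) and Cx3cl1 (99.7 against 17 TPM, adjusted p = 0.00328) rose too. For Cxcl16, 18.3% of exon bases overlap Zmynd15 on the opposite strand.

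Of the homeostatic and mucosal ligands, 2 of 12 rose (Cxcl16 and Cx3cl1) and 2 fell (Ccl21a and Cxcl12), with a median log2 difference of -0.05. Ccl21a fell to between 0 and 52.7 TPM in the tumours from at least 311 TPM in oviduct (log2 difference -7.82, SE 1.12, adjusted p = 8.27e-06), lowest in Ovgp1-BPR (0.25, 0 and 0 TPM) and highest in Pax8-BPR (38, 52.7, 7.79 and 12 TPM). Cxcl12 fell to 34.6 and 4.92 TPM in Ad-BPR, 41.5, 134, 75.2 and 20.9 TPM in Pax8-BPR and 8.18, 16 and 7.87 TPM in Ovgp1-BPR (log2 difference -3.32, SE 0.61, adjusted p = 0.000153). All 9 tumours were below all 3 oviducts for both genes. Ccl11 (2.53 against 14.7 TPM, adjusted p = 0.00196), Ccr10 (0.152 against 0.44 TPM, adjusted p = 0.0211) and Xcr1, a receptor of cross-presenting dendritic cells (0.0842 against 0.383 TPM, adjusted p = 0.0372), fell at lower levels. The call of Xcr1 was lost in 9 of 19 alternatives. Markers of other cells were called lower beside them: 2 of 4 for dendritic cells (summed 0.48 to 39.9 TPM against 6.75 to 16.8 TPM in oviduct, with 1 of 4 higher), 1 of 3 for fibroblasts (478 to 1669 against 1513 to 2357 TPM), 1 of 3 for endothelium (39.5 to 151 against 80.9 to 107 TPM) and 3 of 4 for ovary somatic cells (4.25 to 102 against 48.2 to 625 TPM). Their part in these falls was not tested. Since oviduct libraries 1 and 3 were doubted for their ovary transcripts, the counts were repeated without both. This leaves 1 oviduct library, assumed to vary like the other groups. Far fewer members were then called higher and fewer lower, and Cxcr2, Cxcl2, Cxcl1 and Xcr1 were among those no longer called. Whether the rises of Ccl2, Ccl3, Ccl7, Ccr1, Cxcl16 and Cx3cl1 were called in that fit is not given here.

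**Figure D3:**
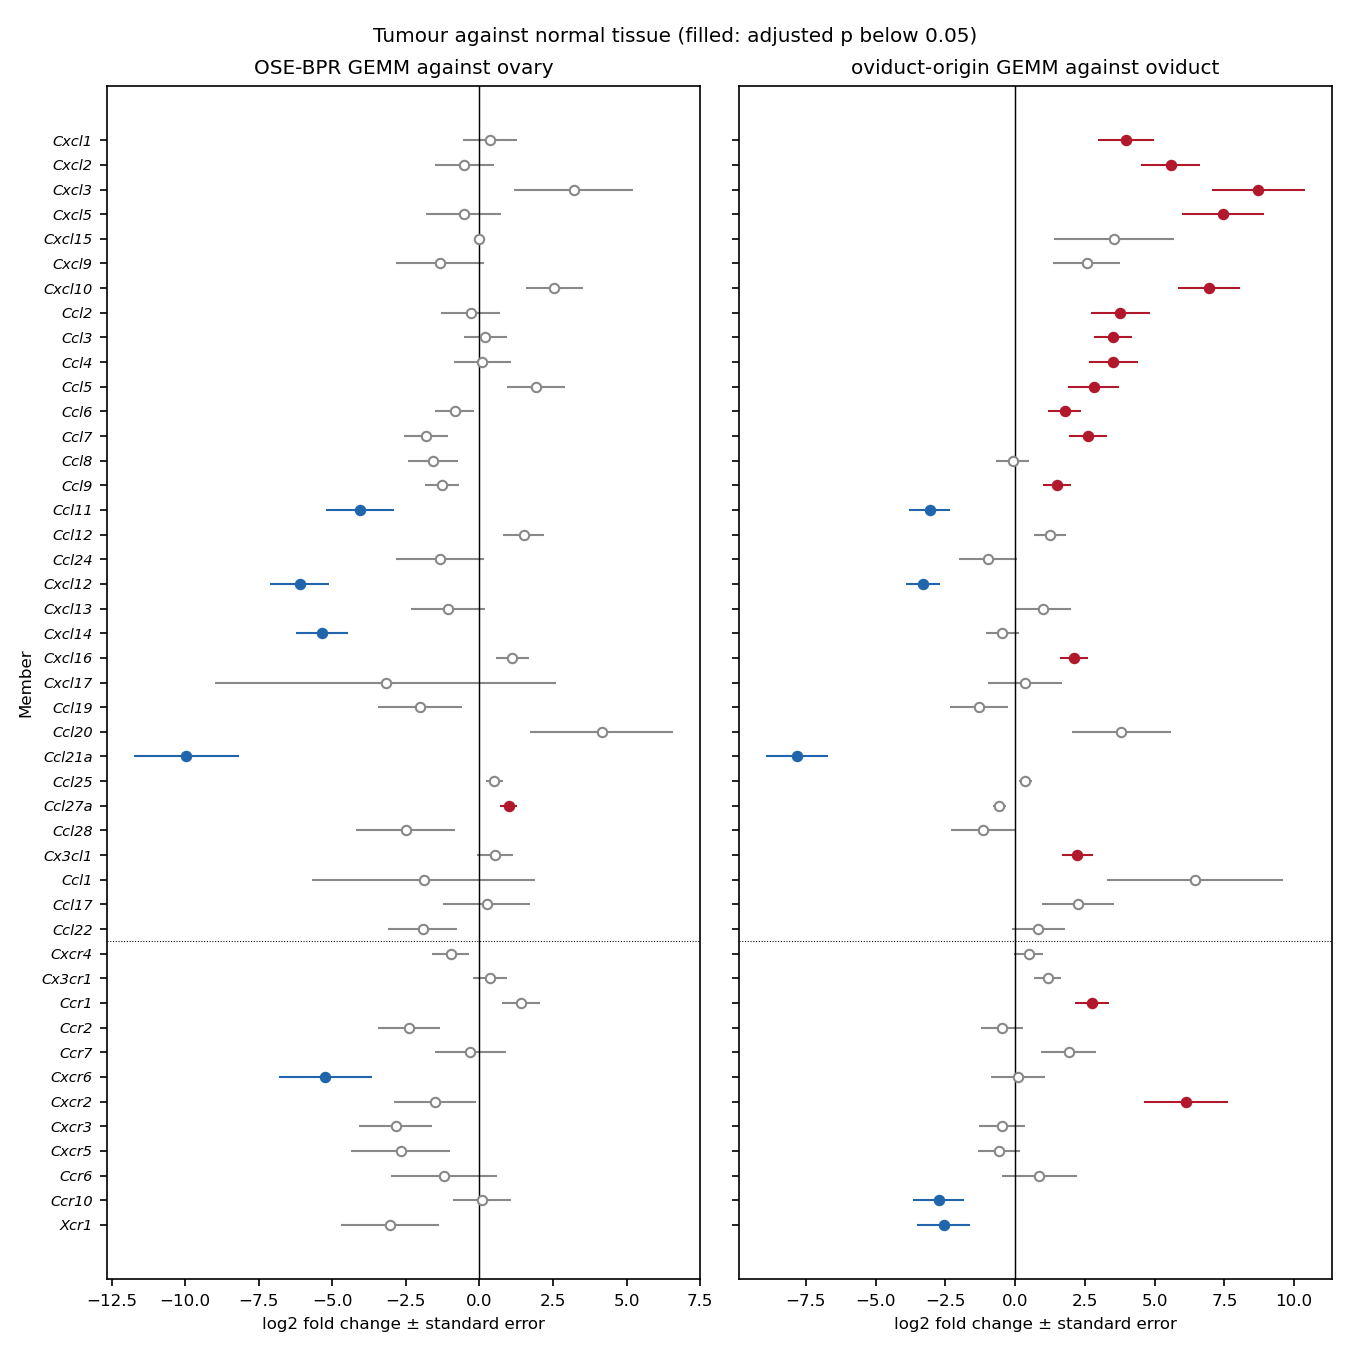
Log2 fold change with its standard error (x axis) of tested members (y axis) in OSE-BPR GEMM tumours against ovary and in oviduct-origin GEMM tumours against oviduct; filled points have an adjusted p below 0.05. Ccl21a and Cxcl12 lie far left in both, whereas Cxcl3, Cxcl5 and Cxcl10 are filled and far right in the oviduct-origin comparison only; for a member at 0 counts in a group the plotted value is the fitted one and no bound.

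The third comparison set OSE-BPR against oviduct-origin tumours. In GEMM tumours 24 of 45 members were lower in OSE-BPR, where 11.1% of all 20000 genes were lower, and 2 were higher, where 14.9% of all genes were. The median log2 difference was -3.03 for members (-2.94 with 4 members at their bound) and 0.02 for all genes. Ligands were lower in 19 of 33 cases and receptors in 5 of 12. In allografts 30 of 45 members were lower, where 17.4% of all genes were, and 2 were higher, where 20.4% of all genes were; the median was -2.49 (-2.43 at the bound) for members and 0.04 for all genes. The GEMM count rested on few libraries: without the third OSE-BPR GEMM tumour it fell to 11. The count over all genes fell as well, from 2214 lower of 20000 tested to 936 of 19964.

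Cxcl17 was at 0 counts in all 8 OSE-BPR tumours. It was at 479 and 320 TPM in Ad-BPR GEMM tumours, 327, 39.5, 314 and 114 TPM in Pax8-BPR and 28, 0.17 and 0 TPM in Ovgp1-BPR, so the Ovgp1-BPR tumours reached down to the OSE-BPR level. Against a floor of 3 counts per OSE-BPR library, the mean Cxcl17 level of the 3 oviduct-origin models was at least 406-fold higher in GEMM tumours. In allografts that mean was at least 576-fold higher. These bounds follow the high Ad-BPR and Pax8-BPR levels and do not hold for each Ovgp1-BPR tumour. The test of the equal-weight log2 difference called Cxcl17 lower in OSE-BPR GEMM tumours (adjusted p = 0.02) and allografts (adjusted p = 0.00164). In allografts Cxcl17 was at 277, 350, 279 and 206 TPM in Ad-BPR, 245 and 739 TPM in Pax8-BPR and 0, 0 and 226 TPM in Ovgp1-BPR. Without the third Ovgp1-BPR allograft the call was lost. Ovgp1-BPR and OSE-BPR were then both at 0 TPM, so that fit could not estimate the equal-weight log2 difference. The Ad-BPR and Pax8-BPR allografts, at 206 to 739 TPM, were unchanged by this. The GEMM call was lost without the first Ovgp1-BPR tumour (adjusted p = 0.233) and without OSE-BPR tumour 2 or 3 (0.0674 and 0.0714).

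Most inflammatory ligands were lower in OSE-BPR than in oviduct-origin tumours. Against normal ovary, OSE-BPR GEMM tumours had few of them called lower and 0 called higher. Those lower were 1 of 11 monocyte and inflammatory Ccl ligands, 0 of 5 neutrophil-attracting Cxcl ligands and 0 of 2 interferon-induced ligands. Ccl8 was at 2.03, 1.12 and 0.9 TPM in OSE-BPR GEMM tumours and between 4.45 and 271 TPM in all 18 oviduct-origin tumours (log2 difference -4.90 in GEMM tumours, SE 0.90, adjusted p = 0.000618). Ccl9, a mouse ligand of Ccr1, was at 3.15, 3.81 and 1.81 TPM in OSE-BPR GEMM tumours and 40.5 TPM on average in Ad-BPR, 78.1 in Pax8-BPR and 9.01 in Ovgp1-BPR (log2 difference -3.40, SE 0.61, adjusted p = 0.000472). The lowest Ovgp1-BPR tumour, at 3.29 TPM of Ccl9, lay within the OSE-BPR range. Monocyte and inflammatory Ccl ligands were lower in 8 of 11 cases in GEMM tumours and 9 of 11 in allografts, neutrophil-attracting Cxcl ligands in 3 of 5 both times, and the tested interferon-induced ligands in 2 of 2 both times.

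Cxcl3 (0.127 against 10.2 TPM, adjusted p = 0.00399) and Cxcl5 (0.527 against 31 TPM, adjusted p = 0.00399) were the lowest neutrophil attractants relative to oviduct-origin GEMM tumours. Cxcl9, another interferon-induced ligand of Cxcr3, was at no more than 0.15 TPM in the 8 OSE-BPR tumours and at least 0.39 TPM in the 18 oviduct-origin tumours. It did not overlap between the origins and was lower in OSE-BPR allografts by a log2 difference of -6.17 (SE 1.23, adjusted p = 0.000614). Ccl28 (0.104 against 7.02 TPM, adjusted p = 0.00656) and Ccl11 (0.116 against 4.15 TPM, adjusted p = 0.00121) were lower in OSE-BPR allografts; the call of Ccl28 was lost without the third Ovgp1-BPR allograft (adjusted p = 0.0535). Cxcl12 was lower in OSE-BPR in GEMM tumours (1.33 against 32.7 TPM, adjusted p = 0.00307) and in allografts (2.45 against 25.9 TPM, adjusted p = 0.00174).

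Among receptors, Ccr2 (0.21 against 4.51 TPM, adjusted p = 0.0145), Cxcr2 (0.0567 against 1.67 TPM, adjusted p = 0.0203) and Cxcr6 (0.02 against 1.68 TPM, adjusted p = 0.02) were lower in OSE-BPR GEMM tumours. Cxcr5, the B cell receptor of Cxcl13, was at 0 counts in the 3 OSE-BPR GEMM tumours. The mean level of the 3 oviduct-origin models was at least 4.4-fold higher (adjusted p = 0.0128 for the log2 difference). The call of Cxcr6 was lost without any 1 of the 3 OSE-BPR tumours (adjusted p = 0.0619, 0.0872 and 0.0513) and without the first Ovgp1-BPR tumour (0.0596), and that of Cxcr5 without the third OSE-BPR tumour (0.052) and with limma on log2(TPM + 1) (0.146). Leukocyte markers were lower with them: in GEMM tumours 5 of 5 macrophage, 3 of 3 neutrophil, 3 of 4 B and plasma cell and 2 of 5 T cell markers were called lower, and Ptprc, the common leukocyte marker, was at 0.6 to 3.44 TPM in the 8 OSE-BPR tumours and 2.01 to 25.8 TPM in the 18 others. Summed macrophage markers were 47.8 to 195 TPM against 120 to 866 TPM, neutrophil markers 0.58 to 12.5 against 8.74 to 799 TPM and T cell markers 0.25 to 6.17 against 0.52 to 45.7 TPM. Ly6g and Ncr1 were at 0 counts in all 8 OSE-BPR tumours, and Ms4a1 in 6 of them; of the 18 oviduct-origin tumours, 8 held Ly6g, 9 Ncr1 and 4 Ms4a1 at 0 counts. Fibroblast markers were lower in 1 of 3 cases in GEMM tumours (summed 180 to 576 TPM in the 8 OSE-BPR tumours against 428 to 2991 TPM in the 18 others). Endothelium markers were higher in 1 of 3 cases and lower in 1, and epithelium markers were called in 0 of 4. The part of these cells in the lower chemokine levels was not tested.

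Ccl27a and Ccl25 were the members higher in OSE-BPR, in GEMM tumours and in allografts. Ccl27a differed by 0.99 on the log2 scale in GEMM tumours (SE 0.26, adjusted p = 0.00779) and by 1.05 in allografts (SE 0.22, adjusted p = 0.00103). Its call in GEMM tumours was lost without the third OSE-BPR tumour (adjusted p = 0.0633), and its call in allografts was kept in all 20 alternatives. In allografts Ccl27a was at 39.3, 59, 82, 98 and 82.8 TPM in OSE-BPR, 23.2, 22.6, 30.3 and 35.6 TPM in Ad-BPR, 21.8 and 11.2 TPM in Pax8-BPR and 79.5, 57.5 and 77.9 TPM in Ovgp1-BPR. OSE-BPR thus stood above Ad-BPR and Pax8-BPR without overlap, and overlapped Ovgp1-BPR. Ccl25 was at 18.8 against 11 TPM in GEMM tumours (adjusted p = 0.0238) and 20.7 against 12.7 TPM in allografts (adjusted p = 0.0313), calls that were lost in 6 of 18 and 7 of 20 alternatives.

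The fourth comparison asked which members differed among the 4 models at all. In GEMM tumours 34 of 45 members were called (37.2% of all genes were), and in allografts 32 of 45 (46.4% of all genes). Among the lowest adjusted p in GEMM tumours were those of Ccl9 (5.15e-05), Ccl8 (0.00016), Ccl3 (0.000395), Ccl6 (0.000573), Cxcl3 (0.000819), Ccl7 (0.000921) and Cxcr5 (0.00114). In allografts they included those of Ccl9 (8.46e-05), Ccl27a (0.000239), Cx3cl1 (0.000362), Ccl7 (0.000438), Ccl8 (0.000581), Ccl6 (0.000681) and Cxcl3 (0.000738). Cx3cl1, a membrane-anchored attractant of monocytes and T cells, averaged 18 TPM in OSE-BPR allografts, 177 in Ad-BPR, 64.9 in Pax8-BPR and 56.3 in Ovgp1-BPR. Ccl6, another mouse ligand of Ccr1, averaged 17.5 TPM in OSE-BPR allografts, 189 in Ad-BPR, 46.4 in Pax8-BPR and 63 in Ovgp1-BPR.

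Ccl1, a ligand of Ccr8, varied widely between tumours of 1 model. It was at 4.02 and 176 TPM in Ad-BPR GEMM tumours and at 131, 368, 0.05 and 0 TPM in Ad-BPR allografts, at 0 counts in all 8 OSE-BPR tumours, and at no more than 1.22 TPM in Pax8-BPR. In Ovgp1-BPR the third allograft reached 9.94 TPM and the other tumours no more than 1.07 TPM. High Ccl1 was thus found in 3 of 6 Ad-BPR tumours, 1 primary and 2 grafted. The test across models called it (adjusted p = 0.0104 in GEMM tumours and 0.00437 in allografts), and the Ad-BPR values alone, from 0 to 368 TPM, spanned those of every other model.

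Ovgp1-BPR GEMM tumours were compared with Ad-BPR and Pax8-BPR, the other tumours started in the oviduct. Of 45 members 9 were lower in Ovgp1-BPR, where 10.2% of all genes were, and 1 was higher, where 12.5% of all genes were; the median log2 difference was -1.79 for members and -0.01 for all genes. Ccl27a was at 88.1, 73.4 and 86.9 TPM in Ovgp1-BPR, 31.4 and 24.9 TPM in Ad-BPR and 32.5, 35.3, 15.1 and 37 TPM in Pax8-BPR. It was higher in every Ovgp1-BPR tumour than in any of the others (log2 difference 1.39, SE 0.28, adjusted p = 0.00218). Ccl9 was at 15.9, 7.85 and 3.29 TPM in Ovgp1-BPR and at least 24.9 TPM in every Ad-BPR and Pax8-BPR tumour, again without overlap (log2 difference -2.75, SE 0.59, adjusted p = 0.00325). These calls of Ccl27a and Ccl9 kept their side of the threshold in all 15 alternatives.

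The other lower members were Ccl21a (log2 difference -5.97, adjusted p = 0.0455), Ccl22, a ligand of Ccr4 (-3.42, 0.0302), Cxcr5 (-3.38, 0.0404), Ccl5, a T cell attractant (-3.12, 0.0332), Ccl6 (-2.39, 0.0166), Ccl8 (-2.38, 0.0306), Cx3cl1 (-2.25, 0.0154) and Ccr1 (-1.79, 0.0455). The calls of Ccl21a, Cxcr5, Ccl22, Ccl5 and Ccl6 were lost in 8, 9, 4, 4 and 2 of 15 alternatives; Ccl6 lost its call without the second or the third Ovgp1-BPR tumour (adjusted p = 0.0603 and 0.0858). The count of 9 changed with single libraries, to 1 without the third Ovgp1-BPR GEMM tumour and to 16 without the first. Over all genes the lower count of 2046 of 20000 became 613 of 19924 and 2462 of 19907 in these fits. Macrophage markers were called lower in 2 of 5 cases (120 to 408 TPM summed against 310 to 866 TPM) and so was Ptprc, while no T cell or B and plasma cell marker was called. Of neutrophil markers 1 of 3 was lower (8.74 to 55.6 TPM summed against 24.7 to 799 TPM), of dendritic cell markers 1 of 4 (0.48 to 6.25 TPM against 10.4 to 39.9 TPM) and of epithelium markers 1 of 4 (742 to 2296 TPM against 1350 to 4581 TPM). The part of these markers in the lower levels was not tested. Limma on log2(TPM + 1) turned the share of called genes that were higher in Ovgp1-BPR from 55% to 66.4%.

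Allografts were compared with GEMM tumours over the 4 models with equal weight. No member was called by edgeR in either direction, nor was any other gene (0% of 20000). At an unadjusted p under 0.05 there were 1210 of 20000 genes and 3 of 45 members. Both shares lay near the 0.05 that this threshold gives without any difference, so the 3 are no result about the members. They were Ccl20 (log2 difference -1.98), Cxcl2 (-1.02) and Cxcr3 (-1.40). DESeq2 called 34 genes and limma on log2(TPM + 1) called 0, with no member in either. The median log2 difference was -0.13 for members and -0.02 for all genes. The test of whether the difference between allograft and GEMM varied with the model called 0 genes as well. There, 902 of 20000 genes and 5 of 45 members lay at an unadjusted p under 0.05. DESeq2 called 26 genes and limma 1, again with no member.

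Summed over members, ligands differed more between models than receptors did. The summed ligand level was 168 to 329 TPM (median 222) in the 8 OSE-BPR tumours, 1239 to 2061 TPM in Ad-BPR, 973 to 2336 TPM in Pax8-BPR, 291 to 1303 TPM in Ovgp1-BPR and 703 to 998 TPM in normal tissue. The highest Ovgp1-BPR value came from the third allograft. All OSE-BPR tumours lay below normal tissue, Ad-BPR and Pax8-BPR, and overlapped the lowest Ovgp1-BPR tumour (291 TPM). The summed receptor level was 9.76 to 75 TPM in OSE-BPR, 27.7 to 153 TPM in oviduct-origin tumours and 24.5 to 73.3 TPM in normal tissue, and these ranges overlapped. The ratio of ligands to receptors was 3.02 to 17.2 (median 6.94) in OSE-BPR, 7.8 to 44.5 (median 17.1) in oviduct-origin tumours and 10.1 to 32 (median 19.8) in normal tissue. Cxcr4 made up much of the receptor sum: with Cxcr4 left out of every library the medians were 18.2, 30.7 and 63.6. The scatter of summed ligands against summed receptors shows the OSE-BPR points along the bottom.

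**Figure D4:**
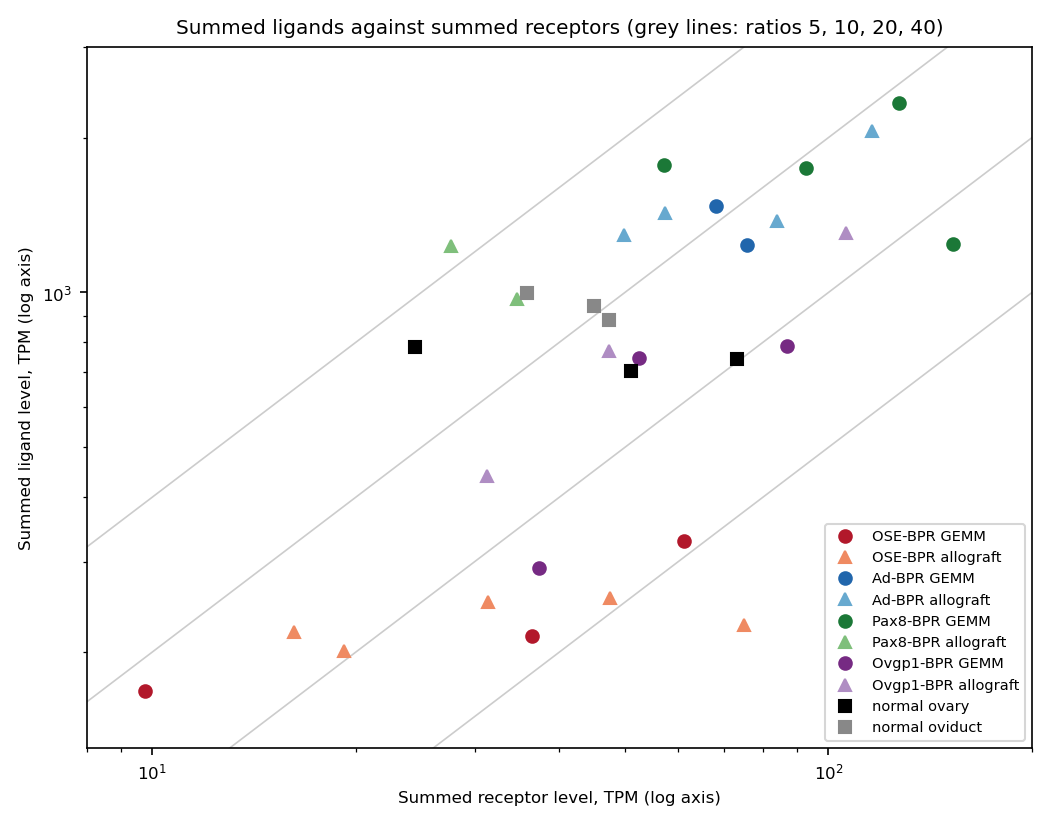
Summed TPM of 18 receptors (x axis) against summed TPM of 38 ligands (y axis) on log axes, 1 point per library coloured by model with grey lines at ligand to receptor ratios of 5, 10, 20 and 40. The 8 OSE-BPR points lie between 168 and 329 TPM of ligands, below all 6 normal points (703 to 998 TPM), while their receptor sums overlap those of the other groups.

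Beyond Cxcr4, few receptors reached high levels. Cx3cr1 was at 2.17 to 16.4 TPM (median 6.14) in OSE-BPR, 4.76 to 32.2 TPM (median 11.3) in oviduct-origin tumours and 4.24 to 6.73 TPM in normal tissue. Ccr2 reached 0.74 TPM in OSE-BPR and 14.5 TPM in oviduct-origin tumours, with medians of 0.18 and 3.87 TPM, and Ccr1 was at 0.61 to 5.46 TPM (median 1.96) and 0.62 to 20.2 TPM (median 7.58). Both monocyte receptors thus had higher medians in oviduct-origin tumours, with overlapping ranges. Ccr7, which brings dendritic cells and naive T cells to lymph nodes, was at 0.06 to 3.14 TPM in OSE-BPR and 0 to 4.63 TPM in oviduct-origin tumours, and at no more than 0.45 TPM in normal tissue. Cxcr3, the effector T cell receptor of Cxcl9, Cxcl10 and Cxcl11, was at no more than 0.2 TPM in OSE-BPR and 3.06 TPM in oviduct-origin tumours. Another 6 receptors stayed under 1 TPM in every library: Ccr3, Ccr4, Ccr8, Ccr9, Cxcr1 and Xcr1, known from eosinophils, T cells, neutrophils and dendritic cells. At such levels a library holds few counts.

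Low ligands varied too. Cxcl13, which draws Cxcr5-bearing B cells, was at 0.1 to 1.12 TPM in OSE-BPR and 0.19 to 27.8 TPM in oviduct-origin tumours, and Ccl19, a ligand of Ccr7, at 0 to 0.82 TPM and 0 to 22.5 TPM. Ccl17, a ligand of Ccr4, was at 0 to 2.8 TPM and 0 to 21.9 TPM. Each range of OSE-BPR lay within that of oviduct-origin tumours or overlapped it. Xcl1, the ligand of Xcr1 made by NK and CD8 T cells, and Cxcl15 were at 0 counts in all 8 OSE-BPR tumours, and reached 4.98 and 10.8 TPM in oviduct-origin tumours. Of the exon bases of Xcl1, 18.7% overlap another gene. Ccl20, a ligand of Ccr6, did not pass 0.88 TPM in OSE-BPR and reached 3.46 TPM in 1 Pax8-BPR tumour.

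Ligand and receptor pairs departed from each other in different ways, given here as ratios of group means in TPM for pairs with both members at 1 TPM in some library (23 of 31 pairs). The ratio of Cxcl12 to Cxcr4 was 8.23 in oviduct and 1.82 in ovary, and it was 0.612 in Ad-BPR, 1.81 in Pax8-BPR and 0.288 in Ovgp1-BPR GEMM tumours. In OSE-BPR GEMM tumours the ratio was 0.0621, since Cxcl12 was low in all of them and Cxcr4 was low only in the third. Ccl21a stood to its receptor Ccr7 as 1630 to 1 in ovary and 1123 to 1 in oviduct, 9.59 in Pax8-BPR, 1.76 in OSE-BPR, 0.677 in Ad-BPR and 0.24 in Ovgp1-BPR GEMM tumours. The ratio of Cxcl16 to Cxcr6 was 18.4 in ovary, 43.6 in oviduct, 78.2 to 280 in oviduct-origin GEMM tumours and 2229 in OSE-BPR GEMM tumours, where Cxcr6 was at 0, 0 and 0.06 TPM and the ratio rests on a single count. Cx3cl1 and Cx3cr1 stayed closer, at 1.88 in ovary, 3.22 in oviduct, 2.24 in OSE-BPR, 3.08 in Ovgp1-BPR, 7.49 in Pax8-BPR and 12.3 in Ad-BPR GEMM tumours.

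Other genes of the pathway were read from fixed lists. The atypical receptors, which bind chemokines without G protein signalling, were called higher in 1 and lower in 1 of 6 cases in OSE-BPR GEMM tumours against ovary. Ackr4, which takes up Ccl21 and Ccl25, was at 9.66 against 0.623 TPM (adjusted p = 0.0285), and Ackr3, which takes up Cxcl12, at 4.6 against 11 TPM (adjusted p = 0.0221). Against oviduct-origin GEMM tumours Ackr3 was lower (4.6 against 14.4 TPM, adjusted p = 0.00676) and Gpr182, an endothelial scavenger, higher in OSE-BPR (10.7 against 1.08 TPM, adjusted p = 0.02). Dpp4, a peptidase that trims and inactivates several chemokines, was at 15.7, 114 and 123 TPM in OSE-BPR GEMM tumours and 3.24, 3.11 and 1.39 TPM in ovary, without overlap (log2 difference 4.90, SE 1.10, adjusted p = 0.00245). Dpp4 was at 38.7, 51.6 and 72.7 TPM in Ovgp1-BPR GEMM tumours, 5.68 and 0.42 TPM in Ad-BPR and 1.29, 23.1, 2.29 and 3.27 TPM in Pax8-BPR. It was higher in Ovgp1-BPR than in both of these models (log2 difference 3.46, adjusted p = 0.0117) and higher in OSE-BPR than in oviduct-origin GEMM tumours (2.79, adjusted p = 0.0123).

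The signalling genes Pik3cg, Dock2 and Arrb2 were called higher in oviduct-origin GEMM tumours than in oviduct (3 of 5 genes in the list). Pik3cg, the PI3-kinase subunit that chemokine receptors engage in leukocytes, was at 6.82 against 1.47 TPM (adjusted p = 0.0268) and was lower in OSE-BPR GEMM tumours (1.08 TPM, adjusted p = 0.009 against oviduct-origin). The platelet-type chemokines Pf4 and Ppbp were both lower in OSE-BPR than in oviduct-origin GEMM tumours (16.6 against 61.2 TPM, adjusted p = 0.03, and 0.337 against 5.72 TPM, adjusted p = 0.00835). Ppbp was also higher in oviduct-origin GEMM tumours than in oviduct (adjusted p = 0.0245), while Pf4 was not called there (61.2 against 23.1 TPM, adjusted p = 0.139).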

How the data were processed

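Total RNA of 26 mouse tumours and 6 normal tissues was sequenced. RSEM expected counts were deposited by the authors, and TPM values, which divide counts by gene length, were also deposited by the authors; the submitters' processing notes name STAR 2.7.0f, RSEM 1.3.1, cutadapt 1.18, bcl2fastq and Picard, and the builds mm10 and GRCm38. No source used here gives the strandedness. Members and gene lists were chosen with earlier results of these data known. For testing, edgeR 4.0.16 (R 4.3.3) ran its quasi-likelihood test on the rounded expected counts, with TMM normalization, filterByExpr (minimum count 10, minimum total 15) and Benjamini-Hochberg adjustment over all genes tested, called at 0.05. Fits held the 6 normal libraries (17334 genes, 29 members), the 26 tumours (20000 genes, 45 members) or all 32 for tumour against normal tissue (20887 genes, 46 members). A member that passed the filter through its high group alone could hardly fail to differ, so counts over tested members describe them only. The script was tested on simulated counts. Some items counted in the totals are not reported here.

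Oviduct-origin is the mean of Ad-BPR, Pax8-BPR and Ovgp1-BPR with equal weight. Named members were the called ones at 1 CPM or more in a group, up to 6 per direction by fold (8 lowest adjusted p across models), the 8 ligands and 6 receptors of highest mean TPM and members of fixed pairs. Other genes of the pathway were named after their values were seen. A bound sets a floor of 3 counts per library against the mean of the other side's group means, and covers counting error only. The adjusted p beside it tests the log2 difference. The chosen fit has no block; the normal tissues pair by animal, and deviations of the same animal's tissues correlated at -0.085, -0.044 and 0.060. The labels do not say whether allografts of a model share a source tumour, and p-values then measure only the spread between these samples. Coordinates came from GENCODE M21, which held all 55450 gene IDs, and promoter windows from RefSeq GRCm38.p6. Alternatives were DESeq2 1.42.0, limma 3.58.1 on log2(TPM + 1) and log2(TPM + 0.1), RLE factors, no filter, only the compared groups, all libraries in 1 fit, the animal block and leaving out each library.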

Additional observations from a re-analysis of the deposited data

Results flagged for a closer look

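Single libraries stood far from the rest of their group in 11 of 138 tests by Dixon's criterion, in groups of 4 or 5 libraries. The tests covered 43 named members, the summed ligands and the summed receptors, on log2(TPM + 1), and the ligand to receptor ratio on log2. By chance about 1 in 20 groups is flagged. All 11 flags fell on single members. Of these, 7 lay in OSE-BPR allografts, with levels in TPM. Ccl6 was at 45.1 in the first library against 9.07 to 12.6 in the others, and Ccl22 at 0.4 there against 0 to 0.06. The second library held Ccr6 at 0.46, Cxcr6 at 0.12 and Cxcl9 at 0.15, where the others held at most 0.04 of each. Ccl5 was at 1.85 in the fourth library against 3.5 to 4.34. Ccr7 was at 3.14 in the fifth library against 0.06 to 0.56.

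In the third Ad-BPR allograft Cxcl2 was at 3.37 against 6.86 to 7.55 in the others, and Cxcl11 at 0.07 against 0. Among Pax8-BPR GEMM tumours Ccl20 was at 3.46 in the second against 0 to 0.13, and Ccl27a at 15.1 in the third against 32.5 to 37. The values of Cxcl11, Cxcl9, Cxcr6, Ccr6 and Ccl22 rest on few counts.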

How the results depend on the processing

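Of 412 tests of named members under alternatives other than leaving out 1 library, 385 kept their side of the threshold and 27 lost the call. Of 689 that leave out 1 library, 626 kept it and 63 lost it. No direction reversed, but the tests across models, counted among these, have none. These members were named because they were called in the same data. For oviduct against ovary, the higher count of 12 became 3 with all 32 libraries in 1 fit, and the lower count of 3 became 0 there, 1 with the animal as a replicate block and 1 without both oviduct libraries 1 and 3 (an alternative chosen after seeing the data). The replicate block changed no other call named here. For OSE-BPR GEMM against ovary, 2 members rose with DESeq2, with limma on log2(TPM + 0.1) and with only the compared groups. For oviduct-origin GEMM against oviduct, 6 rose and 3 fell without both oviduct libraries, and 3 fell with only the compared groups. The count higher in OSE-BPR was 1 with no filter (GEMM tumours and allografts) and with only the compared groups (GEMM tumours). The 9 lower in Ovgp1-BPR became 20 with DESeq2, 17 and 19 with limma on log2(TPM + 1) and log2(TPM + 0.1), and 5 with only the compared groups. Over all genes the lower count was 2046 of 20000, and it became 3038, 1804 and 1955 of 20000 and 1346 of 18121 in the same order. The median ligand to receptor ratio over the 26 tumours was 15.2, 26.4 without Cxcr4 and 7.84 in CPM. Without Cxcr4 it was 18.2 in OSE-BPR, 30.7 in oviduct-origin tumours (8.2 in CPM with Cxcr4 kept) and 63.6 in normal tissue. The cause of these changes was not tested.

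Leaving out 1 library gave 9 to 13 higher and 1 to 4 lower (oviduct against ovary; 1 without the second ovary), 0 to 2 higher and 3 to 6 lower (OSE-BPR GEMM against ovary; every ovary and the third tumour moved the first, the second tumour the other), 14 to 18 higher and 3 to 6 lower (oviduct-origin GEMM against oviduct; moved by Ad-BPR tumour 2 and oviduct 3), 28 to 35 and 27 to 32 across models, 0 to 3 higher and 11 to 27 lower (OSE-BPR against oviduct-origin GEMM; OSE-BPR tumours 1 and 3 and both Ad-BPR tumours moved the first, OSE-BPR tumours 2 and 3 the other), 1 to 2 higher and 25 to 31 lower in allografts (OSE-BPR 1 and 5, Pax8-BPR 2 and each Ovgp1-BPR allograft moved the first), and 1 higher and 1 to 16 lower (Ovgp1-BPR GEMM; each Ovgp1-BPR and Ad-BPR tumour). Where a group then held 1 library, it was assumed to vary like the others. Limma on log2(TPM + 1) raised the median of all genes to 0.13 in the Ovgp1-BPR comparison, and the higher share of called genes from 55% to 66.4%. Depth limits receptors most: those under 1 TPM rest on few counts.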
